A study of Mus musculus with 24 samples.

Results

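Transcripts of 10 chemokine genes were followed in mouse ovarian cancer cells treated with cisplatin, with the SMARCA4 degrader AU-15330, or with both drugs. The genes, Cxcl10, Ccl5, Ccl2, Ccl7, Cxcl1, Ccl20, Cxcl12, Cxcl16, Cx3cl1 and Cxcl9, were taken by symbol from a table of read counts for 25229 genes, and all 10 were found in it. Of these, 9 had enough reads to be tested, and Cxcl9 did not. ID8 is a line derived from ovarian surface epithelium of a C57BL/6 mouse, and every library came from its Trp53 knockout (labelled ID8 P53 KO), so that the controls lack p53 as well. Each group held 6 libraries, collected after 6 days with the vehicle DMSO, with AU-15330 at 2.5 μM, with cisplatin at 750 nM, or with both at these doses. AU-15330 belongs to the PROTACs, which recruit a ubiquitin ligase to their target, and removes SMARCA4 and SMARCA2, the ATPases of the SWI/SNF chromatin remodelling complex. Cisplatin crosslinks DNA. The methods of the study name another cisplatin concentration for these cells than the labels, and the labels' value is given here. Nothing in the labels says whether the 6 libraries of a group came from separate cultures, so the p-values measure only the spread between these libraries.

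Chemokines are small secreted proteins that guide leukocytes along a gradient by binding G protein-coupled receptors. Cxcl9 and Cxcl10 bind CXCR3 on activated T cells and NK cells, Ccl5 attracts T cells, NK cells and monocytes, and Ccl2 and Ccl7 bind CCR2 on monocytes. Cxcl1 attracts neutrophils through CXCR2, Ccl20 binds CCR6 on dendritic cells and subsets of lymphocytes, and Cxcl12 is the constitutive ligand of CXCR4. Cxcl16, the ligand of CXCR6, and Cx3cl1, the ligand of CX3CR1, are made as membrane-anchored proteins that can be shed by proteases. Many of the inducible members are targets of NF-κB and of interferon signalling, and belong to the secretome described for senescent cells.

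Library totals ran from 17592588 to 25260009 counts. The level of 3 counts in a library, taken as the floor, equalled 0.120 to 0.186 CPM (counts relative to library size, after scaling between libraries). The floor covers counting error only. The study uses cisplatin to bring about senescence. The transcripts of proliferation and cell cycle genes examined here moved against that label, while several of the chemokine genes, which belong to the senescence secretome, rose. The study itself assessed senescence of cisplatin-treated ID8 cells by cell proliferation, beta-galactosidase activity and gene signatures as well. Those signatures, and measures of senescence other than RNA, were not analysed here. Of 9 senescence and proliferation genes 7 were tested, and the proliferation genes Mki67, Ccna2, Ccnb1 and Top2a, together with Lmnb1, were higher with cisplatin than with DMSO. Mki67 rose from 30.2 to 83.2 CPM with DMSO to 250 to 375 CPM with cisplatin (log2 fold change 2.72, standard error 0.24, adjusted p = 5.03e-10). Cdkn1a, the gene of the cell cycle inhibitor p21, was 2.84-fold lower (log2 fold change with a standard error of 0.18, adjusted p = 1.09e-07), and Cdkn2a and Cdkn2b had 0 counts in all 24 libraries. Glb1, which encodes the lysosomal beta-galactosidase, was lower as well (−0.28, standard error 0.08, adjusted p = 0.00638). The genes are therefore referred to below as the 10 chemokine genes, without a claim about the state of the cells. The 7 markers of ID8 cells (keratins, Wt1, Msln and Upk3b) were all tested and summed to between 3512 and 5308 CPM with DMSO, 4174 and 4851 CPM with cisplatin, 1018 and 1150 CPM with AU-15330, and 1222 and 1403 CPM with both drugs.

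RNA of immune cells was near the limit of detection. Ptprc, which encodes the pan-leukocyte protein CD45, reached no more than 5 counts. The 5 T and NK cell markers together had at most 5 counts, the 3 neutrophil markers at most 7 and the 3 B cell markers at most 17. Of the 6 macrophage markers only Cd68 and Cd14 were tested, and all 6 had summed levels of 12.7 to 30.6 CPM (DMSO), 17.5 to 53.5 (AU-15330), 11.9 to 18.6 (cisplatin) and 25.1 to 43.0 (both), while Adgre1, Csf1r, Itgam and Lyz2 stayed at 4 counts or fewer. Those 2 moved apart with AU-15330 relative to DMSO, Cd68 upward (log2 fold change 1.56, standard error 0.29, adjusted p = 3.16e-05) and Cd14 downward (−3.96, standard error 0.23, adjusted p = 1.86e-14). The 3 fibroblast markers, all tested, were higher with cisplatin and with AU-15330 than with DMSO (26.0% and 36.2% of all genes were higher), and their summed level was 19.2 to 41.7 CPM with DMSO, 44.9 to 69.7 with AU-15330, 146 to 224 with cisplatin and 48.4 to 81.1 with both. Of the 3 endothelial markers Pecam1 was tested, with medians of 3.63, 0.431, 10.1 and 0.838 CPM in the same order, and Cdh5 and Kdr had at most 3 counts. The part of these marker changes in the chemokine levels was not tested, and in such bulk samples fewer cells of a type and less RNA per cell cannot be told apart.

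Counts of the 10 genes were compared between groups in a single fit of all 24 libraries over 12941 genes, with edgeR's quasi-likelihood test and Benjamini-Hochberg adjustment over all those genes. With cisplatin alone, 7 of the 9 tested chemokine genes were higher than with DMSO, 1 was lower and 1 was not called. Across all tested genes, 26.0% were higher and 25.7% lower. The median log2 fold change of the 9 genes was 2.94, against −0.0041 over all genes. With AU-15330 alone, 3 were higher, 4 lower and 2 not called relative to DMSO (36.2% and 37.2% of all genes were higher and lower), and the median was 0.23, against −0.0030 over all genes. When AU-15330 was added to cisplatin, 1 gene rose, 5 fell and 3 were not called relative to cisplatin alone (35.4% and 32.7% of all genes), with a median of −0.81 against 0.039. When cisplatin was added to AU-15330, 6 rose, 1 fell and 2 were not called relative to AU-15330 alone (22.2% and 19.5% of all genes), with a median of 1.71 against 0.0062. Both drugs together against DMSO gave 5 higher, 2 lower and 2 not called (36.8% and 36.5% of all genes), with a median of 1.31 against −0.00083. AU-15330 against cisplatin gave 0 higher and 9 lower (35.8% and 37.3% of all genes), with a median of −2.71 against −0.010. These comparisons share groups of libraries and are not independent of each other. Ccl7, Cxcl1 and Ccl20 passed the low-count filter mainly through libraries with cisplatin, so that they had to be high there to be tested. The counts and medians over the 9 genes are therefore a description. So are the differences of these 3 genes from the groups with cisplatin, given below. With DMSO, at least 1 library had 3 counts or fewer of Cxcl10, Ccl7, Cxcl1, Ccl20 and Cxcl9, so the fold changes of these genes depend in part on the small numbers of reads in the control.

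**Figure D1:**
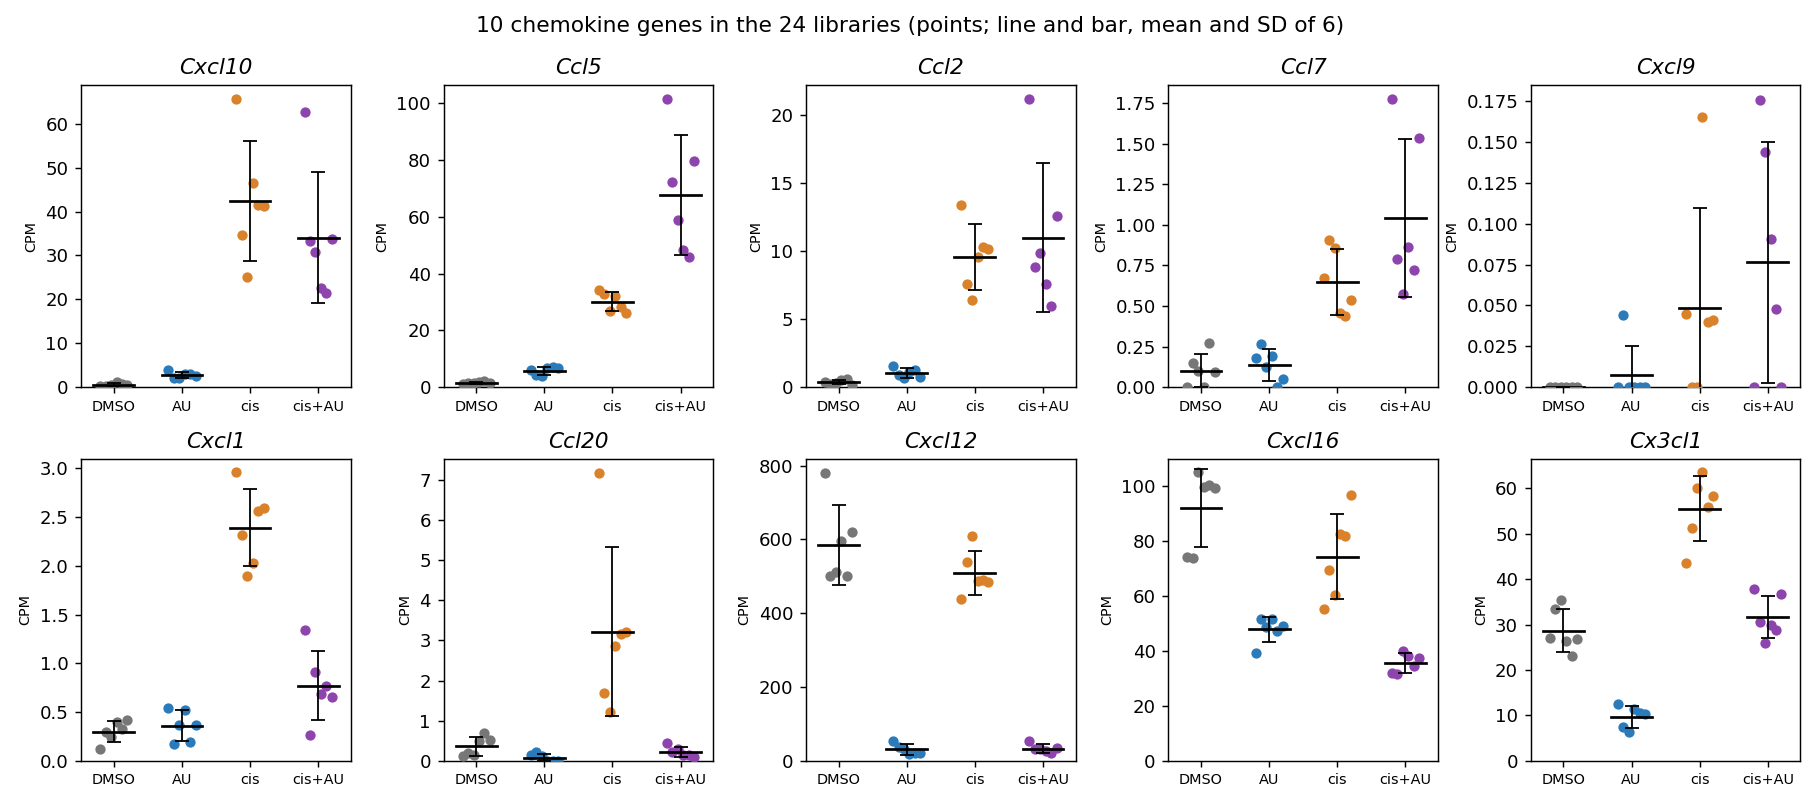
Level of the 10 chemokine genes in the 24 libraries. Each panel has its own axis of CPM starting at 0, points are single libraries placed from left to right by replicate number, lines are the means and bars the SD of 6 libraries, cut off at 0 (AU, AU-15330; cis, cisplatin). Cxcl10, Ccl5 and Ccl2 are high in both cisplatin groups, Cxcl1 and Ccl20 are high with cisplatin alone, and Cxcl12 is low in both AU-15330 groups.

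Cxcl10 (chr5:92346638-92348889 on GRCm38, minus strand) had the largest fold change of the 9 genes with cisplatin. It ranged from 0.186 to 1.07 CPM with DMSO (median 0.496), from 2.03 to 3.87 with AU-15330 (median 2.76), from 25.0 to 65.6 with cisplatin (median 41.3) and from 21.4 to 62.7 with both drugs (median 32.0). The DMSO, AU-15330 and cisplatin libraries did not overlap, and the libraries with both drugs lay within or just below the range of cisplatin alone. Relative to DMSO, Cxcl10 was 75.5-fold higher with cisplatin (log2 fold change 6.24, standard error 0.34, adjusted p = 7.81e-14) and 4.95-fold higher with AU-15330 (2.31, standard error 0.40, adjusted p = 1.08e-05). Adding AU-15330 to cisplatin gave a difference of −0.32 (standard error 0.23, adjusted p = 0.231), lower in 5 of 6 same-numbered libraries. That value turned on replicate 1 of the libraries with both drugs, at 62.7 CPM when the other 5 lay between 21.4 and 33.7. Without that library the difference was −0.58 (adjusted p = 0.0150), and without replicate 1 of every group it was −0.45 (adjusted p = 0.0233).

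Ccl5 (chr11:83525778-83530518, minus strand) rose with each drug and was higher still with both. It measured 1.18 to 2.10 CPM with DMSO (median 1.43), 3.95 to 7.19 with AU-15330 (median 6.31), 26.1 to 34.3 with cisplatin (median 30.2) and 45.9 to 101 with both drugs (median 65.5). None of the 4 groups overlapped, and the order was DMSO, AU-15330, cisplatin, both drugs. Cisplatin raised it 19.7-fold (log2 fold change 4.30, standard error 0.21, adjusted p = 5.31e-15) and AU-15330 raised it 3.77-fold (1.92, standard error 0.22, adjusted p = 1.60e-08). In the presence of cisplatin, AU-15330 raised it a further 2.25-fold (1.17, standard error 0.16, adjusted p = 4.21e-07), higher in 6 of 6 same-numbered libraries. Both drugs against DMSO gave a 44.5-fold difference (5.47, standard error 0.21, adjusted p = 9.08e-18). Of the 9 tested genes, Ccl5 alone was called higher when AU-15330 was added to cisplatin.

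Cxcl9 (chr5:92321347-92328079, minus strand) could not be followed at this depth. It had 0 counts in all 6 DMSO libraries, 1 count in 1 AU-15330 library, 7 counts over the 6 cisplatin libraries and 10 counts over the 6 libraries with both drugs, with at most 4 in any library. It lies 18.6 kb from Cxcl10 on chromosome 5, and Cxcl11, the third CXCR3 ligand, lies 10.7 kb from Cxcl10 and was also not tested, with 0 to 1 counts per library with DMSO and 3 to 9 with cisplatin. Art3, on the opposite strand, overlaps exons of Cxcl10, and its own highest count was 5. Of the 3 CXCR3 ligands, Cxcl10 alone was well above the floor.

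To show what these inducible genes carry upstream, promoters were taken from a table of RefSeq promoters on GRCm38.p6. The copy used here holds 6 of the 10 (Cxcl10, Cxcl9, Cxcl1, Ccl20, Cxcl12 and Cx3cl1). It lacks Ccl2, Ccl5, Ccl7 and Cxcl16, which all lie on chromosome 11, and this says nothing about RefSeq itself. The 250 bases before the transcription start were scanned on both strands for 3 short motifs. They were an NF-κB motif (GGGANNTTC), an interferon-stimulated response element (GAAANNGAA) and an AP-1 motif (TGANTCA, which reads the same on both strands). Of 32851 promoter windows of that length, 3.23% held the first, 7.13% the second and 6.75% the third. Sequences are shown for the inducible genes Cxcl10, Cxcl1 and Ccl20, and for Cxcl9, the neighbour of Cxcl10 that stayed at the floor. They run 5′ to 3′ on the gene's strand, with every match in capitals.
Cxcl10 (chr5:92348890-92349139, minus strand): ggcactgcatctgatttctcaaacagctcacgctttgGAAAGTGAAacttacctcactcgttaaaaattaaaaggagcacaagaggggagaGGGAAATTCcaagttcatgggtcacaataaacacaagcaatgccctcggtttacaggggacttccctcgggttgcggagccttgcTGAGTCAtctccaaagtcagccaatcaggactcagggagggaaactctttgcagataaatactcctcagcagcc
Cxcl9 (chr5:92328080-92328329, minus strand): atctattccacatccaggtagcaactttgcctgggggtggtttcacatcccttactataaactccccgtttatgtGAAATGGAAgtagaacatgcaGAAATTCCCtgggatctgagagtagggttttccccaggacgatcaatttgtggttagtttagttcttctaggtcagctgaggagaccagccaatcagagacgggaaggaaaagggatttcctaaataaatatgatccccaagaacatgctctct
Cxcl1 (chr5:90890995-90891244, plus strand): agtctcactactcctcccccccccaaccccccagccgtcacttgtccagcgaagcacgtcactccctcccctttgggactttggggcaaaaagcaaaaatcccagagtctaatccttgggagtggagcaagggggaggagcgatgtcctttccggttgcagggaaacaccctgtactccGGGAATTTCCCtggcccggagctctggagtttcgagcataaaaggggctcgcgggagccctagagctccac
Ccl20 (chr1:83116516-83116765, plus strand): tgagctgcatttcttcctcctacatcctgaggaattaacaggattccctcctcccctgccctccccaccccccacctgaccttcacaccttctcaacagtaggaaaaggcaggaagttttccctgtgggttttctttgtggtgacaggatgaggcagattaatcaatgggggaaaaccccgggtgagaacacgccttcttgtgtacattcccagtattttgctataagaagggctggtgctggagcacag
In Cxcl10, the capitals mark from left to right an interferon-stimulated response element starting 213 bases before the transcription start, an NF-κB motif at 159 and an AP-1 motif at 74. In Cxcl9 they mark an interferon-stimulated response element at 175 and an NF-κB motif, on the other strand, at 154. In Cxcl1 they mark 2 NF-κB matches that overlap, one on each strand, at 71 and 69. These windows of Ccl20, Cxcl12 and Cx3cl1 held none of the 3 motifs as spelled, and other spellings were not searched for. The window of Cx3cl1 (chr8:94771930-94772179) runs past the start of the gene at 94772009 given below, since the 2 annotations place the start differently. A match is a string of letters and no measurement of binding.

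Both CCR2 ligands, which attract monocytes, rose with cisplatin. The range of Ccl2 (chr11:82035571-82037453, plus strand) was 0.186 to 0.592 CPM with DMSO (median 0.330), 0.658 to 1.58 with AU-15330 (median 1.01), 6.37 to 13.3 with cisplatin (median 9.86) and 5.99 to 21.2 with both drugs (median 9.32). Libraries with and without cisplatin did not overlap, nor did AU-15330 and DMSO, whereas both groups with cisplatin covered each other. Ccl2 was 25.6-fold higher with cisplatin than with DMSO (log2 fold change 4.68, standard error 0.34, adjusted p = 1.39e-11) and 2.80-fold higher with AU-15330 (1.49, standard error 0.41, adjusted p = 0.00204). Between both drugs and cisplatin alone it differed by 0.20 (standard error 0.24, adjusted p = 0.457).

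Ccl7 (chr11:82045712-82047525, plus strand) lies 8.3 kb from Ccl2 and was sparsely read. It had 0 to 5 counts per library with DMSO (median 0.0948 CPM) and 0 to 6 with AU-15330 (median 0.152 CPM). With cisplatin it measured 0.440 to 0.909 CPM (median 0.603), and with both drugs 0.575 to 1.77 CPM (median 0.827). Libraries with cisplatin lay above all libraries without it. Cisplatin raised Ccl7 6.09-fold over DMSO (log2 fold change 2.61, standard error 0.52, adjusted p = 0.000157), a description given the filter. The difference with AU-15330 was 0.44 (standard error 0.67, adjusted p = 0.564), and that on adding AU-15330 to cisplatin was 0.70 (standard error 0.35, adjusted p = 0.0813). Leaving out replicate 3 of the libraries with both drugs gave 0.82 (adjusted p = 0.0489). Ccl11, which lies 10.3 kb from Ccl7, reached at most 7 counts.

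Cxcl1 and Ccl20, ligands for neutrophils and for CCR6-bearing cells, rose with cisplatin and fell again when AU-15330 was added. Cxcl1 (chr5:90891241-90893115, plus strand) measured 0.124 to 0.418 CPM with DMSO (median 0.308), 0.176 to 0.540 with AU-15330 (median 0.368), 1.90 to 2.96 with cisplatin (median 2.44) and 0.263 to 1.34 with both drugs (median 0.724). The cisplatin libraries stood above all others, and the remaining 3 groups overlapped. Cisplatin raised Cxcl1 7.68-fold (log2 fold change 2.94, standard error 0.30, adjusted p = 8.99e-09), and the level with both drugs was 3.09-fold below that with cisplatin (−1.63, standard error 0.26, adjusted p = 4.43e-06), in 6 of 6 same-numbered libraries. With both drugs it was still 2.48-fold above DMSO (1.31, standard error 0.33, adjusted p = 0.00101). These differences are a description, since Cxcl1 passed the filter mainly through libraries with cisplatin. AU-15330 alone differed from DMSO by 0.23 (standard error 0.37, adjusted p = 0.577).

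Ccl20 (chr1:83116766-83119167, plus strand) rested on few reads outside the cisplatin group. Its cisplatin libraries ranged from 1.22 to 7.16 CPM (median 3.00), replicate 1 being the highest, and those with both drugs from 0.0929 to 0.433 (median 0.182). The 2 groups did not overlap, and the difference was 14.2-fold (log2 fold change −3.83, standard error 0.48, adjusted p = 8.49e-08). With DMSO it measured 0.124 to 0.700 CPM (median 0.344), and cisplatin raised it 8.67-fold (3.12, standard error 0.45, adjusted p = 2.19e-06). Both differences from the cisplatin group are a description, since Ccl20 passed the low-count filter mainly through that group. AU-15330 libraries held 0 to 5 counts, and the fitted difference from DMSO was −2.05 (standard error 0.72, adjusted p = 0.0136). That call came from replicates 4 to 6, which held 0 counts with AU-15330 and 11 to 13 with DMSO, whereas replicates 1 to 3 held 3 to 5 and 2 to 4 counts. It was the only called difference of any member that did not have the same sign in each of 3 sets of replicates (number 1, numbers 2 and 3, numbers 4 to 6). Both drugs against DMSO gave −0.71 (standard error 0.60, adjusted p = 0.290).

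Cxcl12 (chr6:117168535-117181367, plus strand) fell with AU-15330, alone and with cisplatin. It measured 499.9 to 781 CPM with DMSO (median 554) and 438 to 610 with cisplatin (median 489), against 19.6 to 54.5 with AU-15330 (median 26.8) and 21.9 to 53.3 with both drugs (median 32.7). Libraries with and without AU-15330 were far apart, and within each of these pairs the groups overlapped. AU-15330 lowered Cxcl12 18.9-fold relative to DMSO (log2 fold change −4.24, standard error 0.24, adjusted p = 1.39e-14) and 15.2-fold when added to cisplatin (−3.92, standard error 0.24, adjusted p = 6.85e-14). Cisplatin against DMSO gave −0.20 (standard error 0.21, adjusted p = 0.432), and cisplatin added to AU-15330 gave 0.11 (standard error 0.22, adjusted p = 0.710).

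The membrane-anchored chemokines fell with AU-15330 by smaller factors than Cxcl12. Cxcl16 (chr11:70453983-70459984, minus strand) measured 73.7 to 105 CPM with DMSO (median 99.4), 39.2 to 51.5 with AU-15330 (median 48.9), 55.2 to 96.6 with cisplatin (median 75.6) and 31.5 to 39.9 with both drugs (median 36.0). Libraries with AU-15330 lay below all libraries without it. AU-15330 lowered Cxcl16 1.92-fold relative to DMSO (−0.94, standard error 0.12, adjusted p = 7.84e-08) and 2.09-fold in the presence of cisplatin (−1.06, standard error 0.12, adjusted p = 1.32e-08). Cisplatin gave a small decrease (log2 fold change −0.31, standard error 0.12, adjusted p = 0.0290). That call was lost in a fit of these 2 groups alone (adjusted p = 0.0713) and on leaving out replicate 1, 2 or 3 of cisplatin or replicate 3, 4, 5 or 6 of DMSO (adjusted p from 0.0511 to 0.0861). Zmynd15 overlaps Cxcl16 on the opposite strand and measured 3.23 to 7.63 CPM over all libraries, and with the strand setting of the counting unknown, reads in the shared part cannot be told apart.

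Cx3cl1 (chr8:94772009-94782427, plus strand) rose with cisplatin and fell with AU-15330. It measured 23.1 to 35.4 CPM with DMSO (median 26.9), 6.33 to 12.5 with AU-15330 (median 10.4), 43.6 to 63.7 with cisplatin (median 57.2) and 26.0 to 37.9 with both drugs (median 30.3). The cisplatin libraries were above, and the AU-15330 libraries below, all others, and the libraries with both drugs overlapped those with DMSO. Cisplatin raised it 1.94-fold (log2 fold change 0.95, standard error 0.14, adjusted p = 2.11e-06). AU-15330 lowered it 2.95-fold relative to DMSO (−1.56, standard error 0.14, adjusted p = 3.16e-10) and 1.75-fold when added to cisplatin (−0.81, standard error 0.14, adjusted p = 8.90e-06). Both drugs against DMSO gave 0.14 (standard error 0.14, adjusted p = 0.345).

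**Figure D2:**
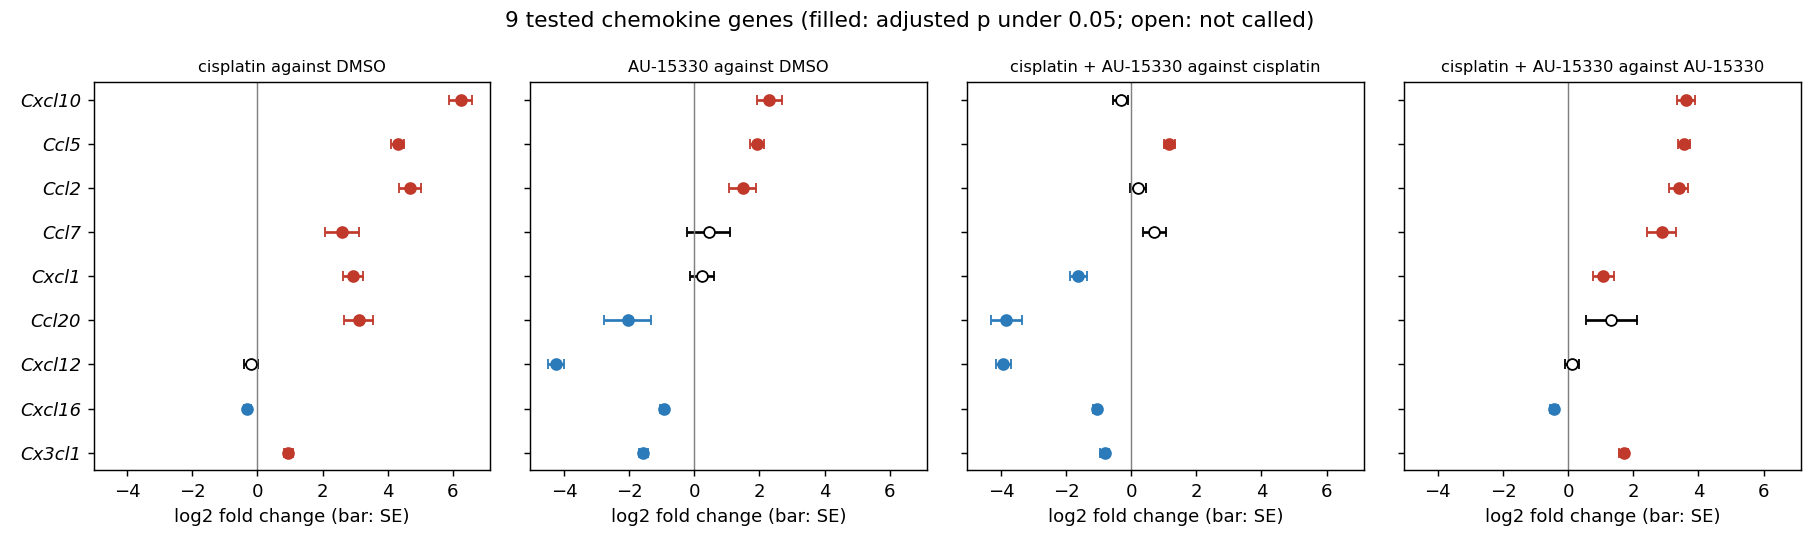
Log2 fold changes of the 9 tested chemokine genes in 4 comparisons, with bars of 1 standard error. Filled points were called (red higher, blue lower) and open points were not. With cisplatin alone 7 genes lie to the right of 0, and on adding AU-15330 to cisplatin Ccl5 alone is called higher.

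Whether the effect of AU-15330 differed with and without cisplatin was asked with an interaction term, which subtracts the log2 fold change of AU-15330 against DMSO from that of both drugs against cisplatin. It was called for 5 of 9 genes, 1 positive and 4 negative (17.9% and 15.8% of all genes), with a median of −0.74 against 0.0065 over all genes. Negative values were −2.62 for Cxcl10 (standard error 0.46, adjusted p = 0.000102), −1.86 for Cxcl1 (0.46, adjusted p = 0.00260), −1.28 for Ccl2 (0.47, adjusted p = 0.0376) and −0.74 for Ccl5 (0.27, adjusted p = 0.0367). A negative term means that the log2 effects of the single drugs add up to more than the effect of both drugs, which was the case for these 4 genes. Cx3cl1 had a positive term, 0.75 (standard error 0.20, adjusted p = 0.00435), its fall with AU-15330 being smaller in the presence of cisplatin. Ccl20 gave −1.78 (standard error 1.04, adjusted p = 0.191), Ccl7 0.27 (0.85, adjusted p = 0.840), Cxcl12 0.31 (0.30, adjusted p = 0.441) and Cxcl16 −0.12 (0.17, adjusted p = 0.604). The calls of Ccl2 and Ccl5 lay near the threshold. That of Ccl2 was lost without replicate 2, 3 or 6 of DMSO, 1, 4 or 5 of AU-15330, 1, 5 or 6 of cisplatin, or 2, 3 or 4 of both drugs (adjusted p up to 0.0764). That of Ccl5 was lost without replicate 1, 3 or 6 of DMSO, 4, 5 or 6 of AU-15330, 1, 2 or 4 of cisplatin, or 3, 4 or 5 of both drugs (adjusted p up to 0.0656).

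**Figure D3:**
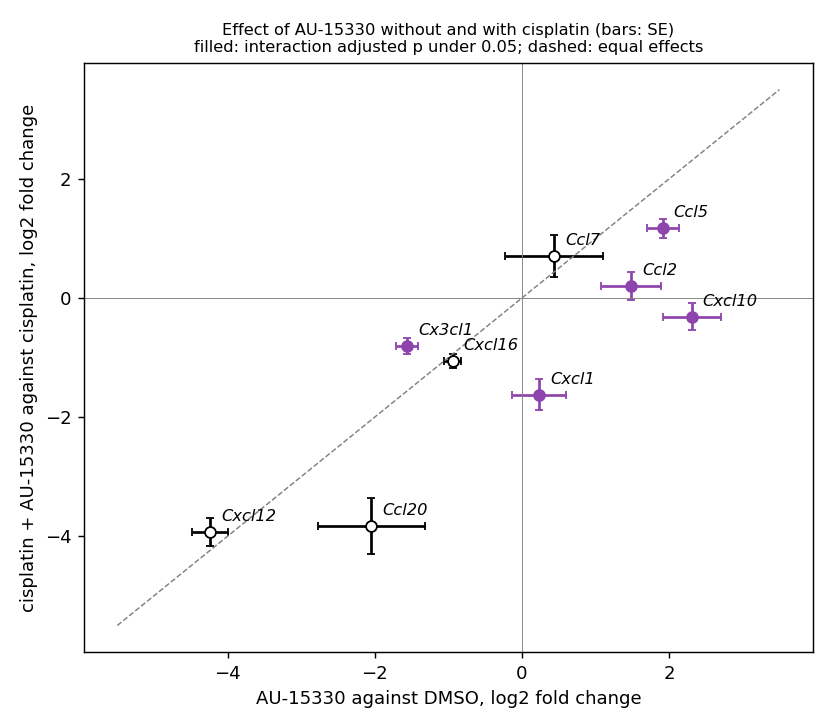
Log2 fold change of AU-15330 against DMSO (horizontal axis) and of both drugs against cisplatin (vertical axis) for the 9 tested chemokine genes, with bars of 1 standard error and a dashed line of equal effects. Filled points had a called interaction: Cxcl10, Cxcl1, Ccl2 and Ccl5 lie below the line and Cx3cl1 above it.

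To compare members with each other, CPM was divided by the length of the annotated exons, since longer transcripts collect more reads. On this scale the sum of the 10 genes was 112 ± 11.4 CPM per kb with DMSO, 30.7 ± 1.72 with AU-15330, 164 ± 4.23 with cisplatin and 121 ± 35.3 with both drugs (mean ± SD, n = 6 each). Its make-up differed between treatments. Cxcl12 made up 63.5 ± 5.88% of the sum with DMSO and Cxcl16 27.4 ± 4.80%, and Ccl5 held 1.43 ± 0.397%. With AU-15330, Cxcl16 came first (51.9 ± 6.58%) and Ccl5 next (19.5 ± 4.14%). With cisplatin, the order was Cxcl12 (38.1 ± 5.36%), Ccl5 (19.1 ± 1.96%), Cxcl16 (10.9 to 19.4%) and Cxcl10 (11.4 ± 3.45%). With both drugs, Ccl5 made up 57.9 ± 2.80%, followed by Cxcl10 (12.2 ± 1.70%) and Cxcl16 (10.4 ± 3.15%), whose ranges overlapped, while Cxcl12 held 3.36 ± 0.232%. Without Cxcl12, the sum was 40.4 ± 5.04 with DMSO, 26.9 ± 2.12 with AU-15330, 102 (range 82.8 to 113) with cisplatin and 117 ± 34.0 with both drugs.

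**Figure D4:**
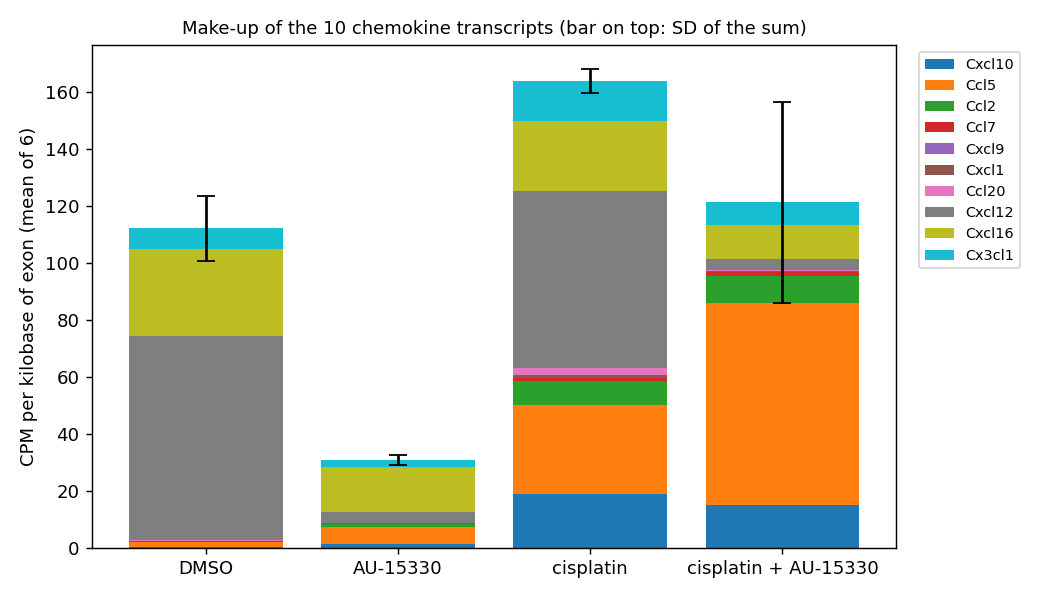
Stacked mean levels of the 10 chemokine genes in CPM per kilobase of exon in the 4 groups (6 libraries each), with the SD of the sum as the bar on top. Cxcl12 and Cxcl16 fill most of the column with DMSO, and Ccl5 most of it with both drugs.

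Some members also varied together among libraries of one treatment. Taking each library's deviation from its group mean, Cxcl10 and Ccl2 had a correlation of 0.739, Ccl5 and Ccl2 of 0.721, and Cxcl10 and Ccl5 of 0.686 over the 24 libraries. Libraries share their depth and handling across genes, so these values describe the libraries and carry no test. Others did not: Ccl7 had correlations of 0.113 with Cxcl10, 0.223 with Ccl5 and 0.150 with its neighbour Ccl2. Ccl5 had one of 0.097 with Ccl20, and Cxcl12 and Cxcl16 one of −0.319. Replicate 1 was the highest library with both drugs for Cxcl10, Ccl5, Ccl2, Ccl7, Cxcl1, Ccl20, Cxcl12 and Cx3cl1, and the highest with cisplatin for Cxcl10, Ccl5, Ccl2, Cxcl1 and Ccl20. Without replicate 1 of every group, every call of the 9 genes in the 7 comparisons stayed on its side of the threshold except that of Cxcl10 given above.

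Genes with the most similar pattern were named by Pearson correlation of log2 CPM over the 24 libraries, among the 12932 tested genes that are no members. Nearest to Cxcl10 were Nectin1 (0.974), Mcm7 (0.974) and Pla2g4c (0.970), to Ccl5 Pola2 (0.981), Mcm10 (0.975) and Zwilch (0.974), and to Ccl2 Mybl2 (0.976), Mcm7 (0.972) and Cenpu (0.971). Ccl7 was nearest to Pold1 (0.909), Cdt1 (0.906) and Kpna2 (0.900). For Cxcl1 they were Cdh22 (0.936), Gbp6 (0.921) and Slc35g1 (0.919), and for Ccl20 Myzap (0.934), Brsk1 (0.933) and 6430584L05Rik (0.931). Cxcl12 was followed by Mal2 (0.996), Slc44a3 (0.993) and Cxcl15 (0.992), Cxcl16 by E4f1 (0.963), 4833420G17Rik (0.960) and Kmt5c (0.958), and Cx3cl1 by Nes (0.976), Ccnd1 (0.963) and Lhx6 (0.961). The 24 points fall into 4 treatment groups and share their libraries, so these correlations are a description of group levels.

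Genes of the pathways that lie upstream of the inducible chemokines were read from the same fit. Interferon genes and inducing cytokines (Ifnb1, Ifna2, Ifna4, Ifng, Ifnl2, Ifnl3, Tnf, Il1a and Il1b) were too rare to test, 0 of 9. Ifnb1 had 2 to 6 counts in every cisplatin library, 0 in every DMSO library, at most 2 with AU-15330 and at most 3 with both drugs. Factors of interferon signalling were all tested (13 of 13): 8 were higher and 1 lower with cisplatin than with DMSO, against 26.0% and 25.7% of all genes. With AU-15330, 6 were higher and 4 lower, shares near the 36.2% and 37.2% of all genes. Irf7, which amplifies type I interferon responses, rose from a median of 8.01 CPM with DMSO to 229 with cisplatin (log2 fold change 4.75, standard error 0.11, adjusted p = 2.16e-21) and 169 with AU-15330 (4.30, standard error 0.11, adjusted p = 1.69e-21). On adding AU-15330 to cisplatin, 3 of the 13 were higher and 6 lower (35.4% and 32.7% of all genes). Irf5, a factor of innate immune signalling, had the largest change (−3.91, standard error 0.20, adjusted p = 3.08e-15). In the same comparison Irf1 rose by 1.47 (standard error 0.10, adjusted p = 1.84e-12) and Irf7 was 1.78-fold lower (log2 fold change with a standard error of 0.09, adjusted p = 7.62e-09).

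NF-κB subunits and inhibitors were all tested (9 of 9). With cisplatin 7 were higher and 0 lower than with DMSO (26.0% and 25.7% of all genes), with a median log2 fold change of 0.39. With AU-15330 6 were higher and 2 lower (36.2% and 37.2% of all genes), with a median of 0.44. Nfkbie, which encodes an inhibitor of NF-κB, rose most with cisplatin (1.34, standard error 0.11, adjusted p = 3.30e-10). Nfkbia, another inhibitor, rose most with AU-15330 (1.76, standard error 0.11, adjusted p = 8.75e-14), and Tnfaip3, a deubiquitinase that limits the pathway, was 1.88-fold lower (log2 fold change with a standard error of 0.12, adjusted p = 1.59e-07). Of the receptors of the inducing cytokines (4 of 4 tested), 3 were higher and 1 lower with cisplatin (26.0% and 25.7% of all genes), and 1 was higher and 3 lower with AU-15330 (36.2% and 37.2% of all genes). With AU-15330 the calls were lower for Tnfrsf1b (−2.71, standard error 0.09, adjusted p = 2.51e-19), Il1r1 (−1.84, standard error 0.15, adjusted p = 4.15e-11) and Tnfrsf1a (−0.74, standard error 0.06, adjusted p = 7.79e-12), and higher for Il1rap (2.01, standard error 0.12, adjusted p = 1.88e-14). Of 3 chemokine-processing proteases 2 were tested, and Dpp4 had at most 5 counts. Adam10, a protease that sheds Cxcl16 and Cx3cl1, was 1.88-fold lower with AU-15330 (log2 fold change with a standard error of 0.08, adjusted p = 7.49e-11), and Adam17, the other such protease, differed by 0.016 (standard error 0.055, adjusted p = 0.80).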

How the data were processed

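RNA was measured in 24 libraries of ID8 Trp53-/- cells, 6 for each of 4 treatments. According to the labels and methods, poly(A) RNA was made into directional libraries and read from 1 end, and the submitters' processing notes name STAR 2.7.1a, mm10 and DESeq2 1.36.0. The authors deposited raw counts per gene symbol, one column for each of 2 sequencing lanes of a library, with no normalization. The counting tool, its strand setting and the annotation are not given in the sources used here. Counts of both lanes were summed, all 48 columns being used. Lanes of a library differed far less (chi-square per degree of freedom 1.36 to 1.46) than libraries of a group (2.30 to 122).

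Genes passing filterByExpr (12941 of 25229) were fitted in R 4.3.3 by edgeR 4.0.16, using TMM scaling, a quasi-likelihood test over 4 groups with 20 residual degrees of freedom, Benjamini-Hochberg adjustment over all tested genes, a call at an adjusted p below 0.05, and fold changes with a prior count of 2. Every adjusted p in the text is from this fit unless another is named. The script was tested on simulated data. CPM per kb used the union of exons of GENCODE M21 on GRCm38, which may differ from the authors' annotation. No stretch of 70 bases of a member's transcripts occurred in the same orientation in another gene's transcripts, whereas exons of Cxcl10 and Cxcl16 overlap genes on the opposite strand. DESeq2 1.42.0, other scaling, no filter, fewer groups, a minimum fold of 1.5, a replicate block and leaving out libraries were the alternatives. The lists hold fixed symbols, and from each the text names at most the 3 called genes with the largest change in each direction with a mean log2 CPM of at least 0, beside the members, the markers and the 3 genes nearest to each member. Adam17, Lmnb1, Top2a and Cxcl11 were named after their values were seen. The members and lists were chosen with earlier results of these data known. Some results on genes of the lists are not reported here.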

Additional observations from a re-analysis of the deposited data

Results flagged for a closer look

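In 4 of the 38 groups of 6 libraries that could be examined, 1 library stood apart, its gap to the nearest library taking more of the group's range than Dixon's critical value for 6 samples allows. Chance gives about 1 such group in 20, here 1.9, and 3 of the 4 libraries were a replicate 1. With both drugs, replicate 1 was the highest for Cxcl10, the gap taking 0.702 of the range (62.7 CPM, others 21.4 to 33.7). With cisplatin, replicate 1 was the highest for Ccl20, at 0.665 of the range (7.16 CPM, others 1.22 to 3.21). With AU-15330, replicate 1 was the lowest for Cxcl16, at 0.663 (39.2 CPM, others 47.4 to 51.5). With cisplatin, replicate 4 was the highest for Cxcl9, at 0.729, which rests on 4 counts (0.165 CPM, others at most 0.0448).

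The effect of AU-15330 differed with and without cisplatin for 5 genes by the interaction term of the edgeR fit. The differences were −2.62 for Cxcl10, −1.86 for Cxcl1, −1.28 for Ccl2, −0.74 for Ccl5 and 0.75 for Cx3cl1 on the log2 scale, each with the same sign in 6 of 6 sets of same-numbered libraries.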

How the results depend on the processing

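No value of a chemokine gene changed direction against a call. Of 424 values of genes and comparisons under alternatives other than leaving out libraries, 9 changed their side of the threshold. Of 927 with a single library, or replicate 1 of every group, left out, 34 did. When a fold change above 1.5 was required, 0 genes were lower with cisplatin than with DMSO, 0 lower with both drugs than with AU-15330, 0 had a positive interaction and 2 a negative one (Cxcl10 and Cxcl1), and 3 further calls were lost: Cx3cl1 on adding AU-15330 to cisplatin (adjusted p = 0.0523, leaving 4 lower), Cxcl1 between both drugs and AU-15330 (0.217, leaving 5 higher) and Cxcl16 between AU-15330 and cisplatin (0.333, leaving 8 lower). With only the groups compared in the fit, 0 genes were lower with cisplatin. Some called genes did not pass the low-count filter in such fits, so those calls could not be repeated there. They were Ccl7 (cisplatin against DMSO, AU-15330 against cisplatin), Ccl20 (AU-15330 against DMSO) and Cxcl1 (both drugs against DMSO). The 424 values do not include these missing fits. With single libraries left out, 1 to 2 genes were higher on adding AU-15330 to cisplatin (2, with Ccl7, without replicate 3 of both drugs), 0 to 1 were lower with cisplatin (0 without cisplatin replicate 1, 2 or 3 or DMSO replicate 3, 4, 5 or 6) and 2 to 4 had a negative interaction (2 without AU-15330 replicate 4 or 5, replicate 3 or 4 of both drugs, cisplatin replicate 1 or DMSO replicate 3 or 6). Leaving out replicate 1 of all groups was chosen after the data were seen. It changed the call of Cxcl10 between both drugs and cisplatin, giving 6 lower genes there. Labels number the replicates alike in each group, but deviations of same-numbered libraries had a mean correlation of 0.145 (−0.133 to 0.483), against −0.027 between other numbers. Replicate 1 alone gave 0.357 (0.217 to 0.483), but not every pair passed 0.1, and the numbers were not taken as pairs. A fit with the number as a replicate block changed 0 of 63 calls, and the largest move of a log2 fold change was 0.148. Without the filter on low counts, Cxcl9 was called higher than with DMSO by edgeR with cisplatin (adjusted p = 0.0392) and with both drugs (0.00937), and not by DESeq2 (0.212 and 0.0796). With totals as here, genes near the 3-count floor allow no statement about small differences.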

Other observations

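Of 31 other chemokine ligands 9 were tested. Of these, 4 were higher and 0 lower with cisplatin than with DMSO (26.0% and 25.7% of all genes), 3 higher and 3 lower with AU-15330 (36.2% and 37.2% of all genes, about the same shares), and 2 higher and 5 lower when AU-15330 was added to cisplatin (35.4% and 32.7%). Cxcl13, a B cell attractant, rose with cisplatin (log2 fold change 5.42, standard error 0.46, adjusted p = 2.92e-10), as did Ccl9 (4.96, standard error 0.48, adjusted p = 3.78e-09) and Ccl17, a ligand of CCR4 (4.24, adjusted p = 7.46e-11). These 3 genes passed the low-count filter mainly through the cisplatin group, DMSO libraries holding 0 to 5, 0 to 11 and 2 to 11 counts of them. They had to be high there to be tested, so their differences from that group are a description. So are the counts of 4 higher with cisplatin and 5 lower on adding AU-15330. On adding AU-15330 they fell again, with log2 fold changes of −3.90, −3.31 and −3.29. Cxcl17 went from 55.9 to 94.6 CPM with DMSO to 0 to 4 counts per library with AU-15330, and Cxcl15 from 17.6 to 34.9 CPM to 1 to 8 counts. Both were called lower, while Ccl28, a mucosal chemokine, was higher (2.92, adjusted p = 1.04e-12).

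Few receptors were transcribed, 2 of 18 passing the filter. Ccr7, which guides cells to lymph nodes, was higher with cisplatin (0.86, adjusted p = 0.000689) and lower with AU-15330 (−4.26). Of 5 atypical receptors, which bind chemokines without the usual signalling, 3 were tested. Ackr4 rose with cisplatin (2.42, adjusted p = 5.73e-07), from 0.186 to 1.24 CPM to 2.35 to 3.72, and had 0 to 3 counts per library when AU-15330 was added. It passed the low-count filter mainly through the cisplatin group (57 to 93 counts, against 4 to 20 with DMSO). Its differences from that group are therefore a description. Ackr3, a scavenger of Cxcl12, was lower with AU-15330 (−1.52) and with both drugs relative to cisplatin (−2.85).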
